A study of Mus musculus with 6 samples.

Results

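The genes described here encode surface proteins through which a T cell receives signals that strengthen or restrain the signal of its antigen receptor. They were chosen by symbol from the table of normalized read counts: Cd28, Btla, Tigit, Lag3, Havcr2, Cd160, Cd226, Cd96, Cd5 and Pdcd1lg2, 10 of 14744 genes. All 10 reached 10 normalized counts in at least 3 libraries and so were among the 11296 genes tested. The name immunoglobulin receptor holds for most of them by structure. CD5 is built of scavenger receptor cysteine-rich domains, and PD-L2, the product of Pdcd1lg2, is a ligand of the inhibitory receptor PD-1.

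CD28 binds CD80 and CD86 on antigen-presenting cells and gives the costimulatory signal that naive T cells need, while CTLA-4 binds the same ligands and restrains the response. Some of the other receptors share ligands in a similar way: CD226 activates and TIGIT and CD96 compete with it for the ligand CD155, and BTLA and CD160 share the ligand HVEM. Several inhibitory members, BTLA and TIGIT among them, carry tyrosine motifs that recruit phosphatases such as SHP-1 and SHP-2.

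Tfh cells are CD4+ T cells of the germinal center, where they help B cells; CD28 and ICOS are needed for their formation, and PD-1 and BTLA are present at high levels. RNA was sequenced from these cells of the mesenteric lymph nodes (MLNs), sorted as CD4+B220-CD44+PD-1+CXCR5+ at 10000 to 30000 cells a sample, in 3 WT samples and 3 samples of Bach2fl/flCd4-cre mice. All mice were of the C57BL/6 strain by the labels, crossed to C57BL/6J by the methods, untreated as far as the labels say, and 2 to 3 months old. The labels say only WT for the control; in the study this name stands for littermates carrying Cd4-Cre, so that both groups carry the recombinase. Cd4-Cre is active in the thymus at a stage that all conventional T cells pass, so the deletion is not limited to Tfh cells. No source says that the samples of a group came from separate mice, and p-values measure only the spread between these samples, which may be technical. The values are the authors' read counts per gene divided by a size factor of each library, called normalized counts here.

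The deposited values of the WT libraries, in the order of replicates 1, 2 and 3 kept throughout, sum to 7809702, 7387316 and 8135325 normalized counts. Those of the other group sum to 7456435, 7362290 and 7361229. Divided by the smallest positive value of their library, 100% of the values came out whole (within 0.01). Taken as 1 read, this step puts WT replicates 2 and 3 at 6585742 and 7823717 reads and the other group at 5045131, 10987752 and 7197242. WT replicate 1, with a step of 1.01, was kept out of the tests on reads.

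Bach2 was read first, as a check of the labels. Its normalized counts were 233, 222 and 105 in WT and 399, 763 and 591 in the libraries of the Bach2fl/flCd4-cre mice. The gene to be deleted was thus higher in all 3 of the latter than in any WT library, against the label, at a log2 fold change of 1.68 (standard error, SE, 0.37, limma adjusted p = 0.141). It passed the thresholds given below in DESeq2 on the reads of 5 libraries, at 1.81 (adjusted p = 0.00123), and in limma with library weights, at 2.36, where the adjusted p was 0.000186, the low end of a range up to 0.501 over 18 alternatives. Reads were counted over the whole gene, so those on exons that the deletion leaves cannot be told apart from intact transcripts. The group is therefore called the libraries labelled Bach2-deficient, and every direction below is drawn from these labels.

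WT replicate 1 stood apart from the other libraries. It had 11648 genes above 0, where the others had 13111 to 13567. Across the genes tested, which are not independent replicates, its squared Pearson correlation of log2 values was 0.725 and 0.743 with the other WT libraries, which had 0.901 with each other. Differences also ran with the length of transcripts. Over 11269 genes, the rank correlation (Spearman's rho) of log2 fold change was 0.32 with the longest transcript and 0.144 with GC content. Some results below are therefore also given without WT replicate 1, or after correction for length and GC content (a smooth curve in both subtracted from each library).

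Markers of the sorted cells were present. All 7 genes of the CD4 T cell list, which holds Cd28, were above 0 in each library, with sums of 60430, 65152 and 82971 normalized counts in WT and 52411, 52853 and 60402 in the libraries labelled Bach2-deficient. Its most abundant gene was Cd3d, at a mean of 19091. All 12 genes of the Tfh list were above 0 as well, with sums of 29634, 35811 and 48698 in WT and 34197, 26534 and 34527 in the other group, led by Sh2d1a at 8827. Both lists thus summed highest in WT replicate 3. In bulk RNA, fewer cells of a type and less RNA per cell cannot be told apart, which holds for each gene below.

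RNA of other cell types was measured too. The 10 genes of the NK or cytotoxic list, several of which T cells also express, summed to 8052, 7754 and 6840 normalized counts in WT and to 3058, 8097 and 3313 in the libraries labelled Bach2-deficient, with Nkg7 the most abundant at 2648. Ncr1, Klrd1 and Klrk1 were at 0 in WT replicate 1 and above 0 in the other 5 libraries. Replicates 1 and 3 labelled Bach2-deficient were thus low for this sum, in which Nkg7 and Ccl5 had the highest means. With all libraries, 5 of the 10 genes had a log2 fold change above 0. That count drew on WT replicate 1: the list median was 0.24, and -0.22 without it. Ncr1, Klrd1 and Klrk1 went from 1.6, 2.0 and 2.1 to 0.13, -0.14 and -0.02, while Gzma and Gzmb stayed above 0, at 0.63 and 1.62. Cells of this list are known to express CD160, CD226, CD96, TIGIT and LAG-3. The 5 B cell genes summed to 240, 780 and 567 in WT and to 415, 324 and 325 in the other group, with Cd79b the most abundant at 178. The 9 genes of dendritic cells or macrophages summed to 2676, 7758 and 3747 in WT and to 2013, 5187 and 1749 in the other group, with Clec9a at 0 in WT replicate 1. Lyz2, at a mean of 3292, made up most of this sum, and 5 of the 9 genes had a log2 fold change above 0. These lists differed as much between replicates as between groups. The part of such cells in the values below was not tested.

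Calls over the whole table required an adjusted p under 0.01 together with more than a 2-fold difference. By this rule limma called 0 of the 10 members, where it called 0% of all genes tested. DESeq2 on the reads of 5 libraries also called 0 members, where it called 0.797% of the genes, 33 higher and 57 lower, and the quasi-likelihood test of edgeR called 0 genes on the same reads. At an unadjusted limma p under 0.05, 3 of the 10 members, Cd28, Cd96 and Cd160, were lower in the libraries labelled Bach2-deficient and 0 were higher, where 10.2% of all genes tested were lower and 10.1% higher. The count of lower members was 1 without replicate 1 or without replicate 2 labelled Bach2-deficient, 2 without WT replicate 3, 4 without replicate 3 labelled Bach2-deficient, 1 after correction for length and GC content and 6 with library weights. Over all genes, 1157 were lower and 1144 higher at that p, which became 595 and 463 without replicate 1 labelled Bach2-deficient and 668 and 532 without replicate 2. The count of lower genes was 782 without WT replicate 3, 1584 without replicate 3 labelled Bach2-deficient, 896 after correction for length and GC content and 2580 with library weights. On the reads of 5 libraries edgeR gave 2070 genes in both directions and DESeq2 2158. The 2 groups did not overlap and the labelled group was lower for 2 members, Cd28 and Cd96, and higher for 0, where 12.2% and 14.6% of all genes were separated in these directions. The median log2 fold change was -0.37 over the 10 members and 0.08 over all genes tested. Without WT replicate 1 the members' median was -0.39, and after correction for length and GC content it was -0.37. The medians of all genes in these 2 fits were 0.025 and 0.1.

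**Figure D1:**
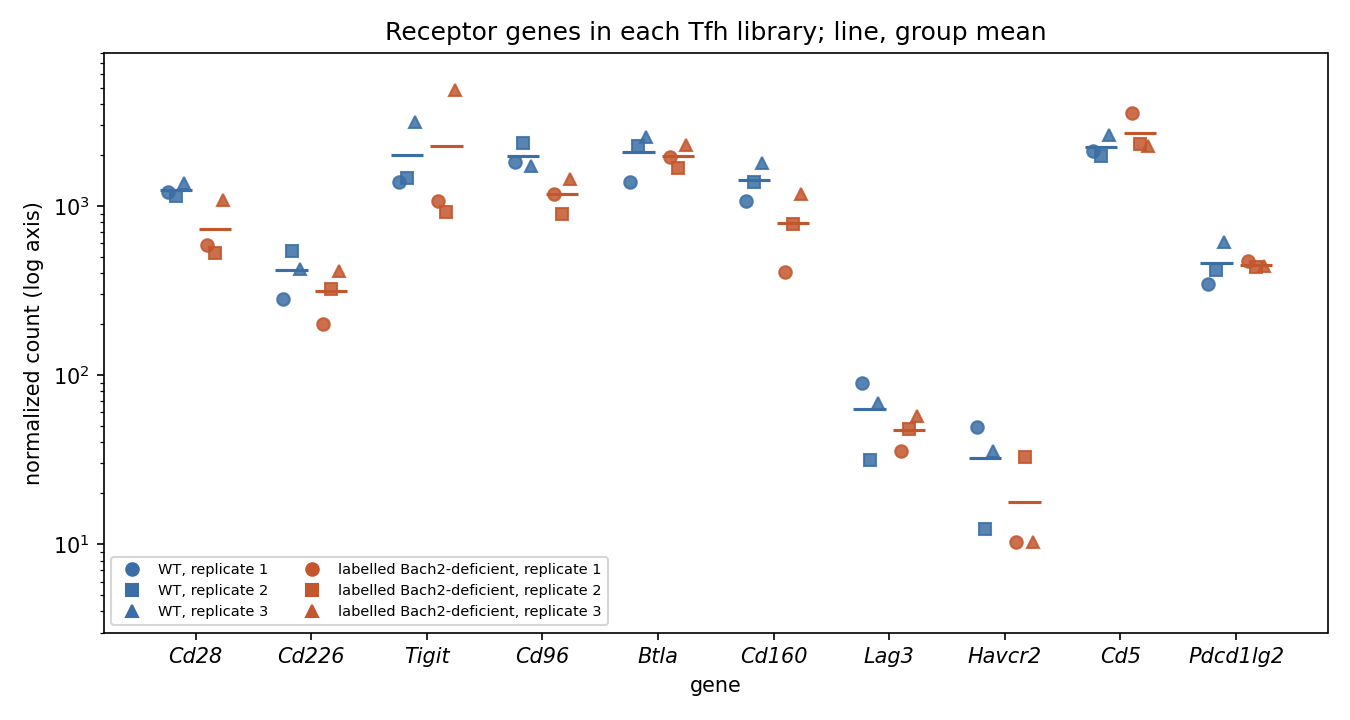
Normalized count of each of the 10 genes (log axis) in each library, ordered by role. Blue marks WT and orange the libraries labelled Bach2-deficient, marker shapes give the replicate number, and lines are group means. Cd28 and Cd96 are separated between the groups, and Tigit spreads from 913 to 4812 within the libraries labelled Bach2-deficient.

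The members covered a wide range of levels. Divided by the length of the longest transcript, the level in WT was highest for Tigit, at 2169 ± 1082 (SD, n = 3) normalized counts per kb. Then came Cd96 at 896 ± 154, Cd5 at 745 ± 113, Btla at 637 ± 188 and Cd160 at 548 ± 140 per kb (SD, n = 3). The spreads of neighbours among these last 4 overlapped. Cd28 at 285 ± 27.1 and Pdcd1lg2 at 265 ± 81.0 per kb followed and did not differ beyond their spread either. Cd226, at 92.5 ± 29.1 per kb, lay below both of them. Lag3 at 31.6 ± 14.8 and Havcr2 at 11.9 ± 6.89 per kb were lowest and overlapped in spread. In the libraries labelled Bach2-deficient, Tigit again had the highest mean, at 2465 ± 2402 per kb, but replicate 3 carried it, its spread overlapped that of Cd5 at 906 ± 242, and in replicate 1 Cd5 was above it, at 1185 against 1164 per kb. Cd226, Lag3 and Havcr2 again had the lowest means, at 69.4 ± 23.7, 23.5 ± 5.48 and 6.54 ± 4.78 per kb (SD, n = 3). The spreads of Cd5, Btla at 606 ± 96.5 and Cd96 at 534 ± 123 per kb overlapped from each to the next, as in WT, and Cd28, at 168 ± 69.9, was below Pdcd1lg2 at 259 ± 10.1 (SD, n = 3).

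Cd28, the costimulatory receptor, lies on chromosome 1 of GRCm38 from 60716800 to 60773359 on the plus strand. Its normalized counts were 1206, 1143 and 1372 in WT and 585, 529 and 1081 in the libraries labelled Bach2-deficient. The WT libraries lay close together, and each of the others was lower than all of them, with replicate 3 labelled Bach2-deficient nearest to WT. Its log2 fold change was -0.83 (SE 0.28, 95% confidence interval -1.45 to -0.21, n = 3 in each group, limma adjusted p = 0.164, unadjusted p = 0.0133), which did not pass the threshold. It was -0.79 after correction for length and GC content and -0.85 without WT replicate 1. Without replicate 3 labelled Bach2-deficient it was -1.15 (limma adjusted p = 0.0385), and over the 18 alternatives the adjusted p ran from 0.000463 to 0.519. The low end came with library weights in limma.

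Ctla4, named here as the partner that binds the same ligands, was at 729, 789 and 940 normalized counts in WT and at 621, 602 and 648 in the libraries labelled Bach2-deficient. It too was lower in each of the latter, with a log2 fold change of -0.38 (SE 0.21, limma adjusted p = 0.306), and went the other way, 0.2, after correction for length and GC content. The log2 ratio of Ctla4 to Cd28, per kb, was 0.44, 0.63 and 0.62 in WT and 1.25, 1.36 and 0.43 in the other group. Replicates 1 and 2 labelled Bach2-deficient lay above WT, and replicate 3 below it. The difference of 0.45 gave a 2-sided exact permutation p of 0.4 (adjusted over 4 ratios 0.53), where 3 libraries against 3 cannot go below 0.1. Without replicate 3 labelled Bach2-deficient the difference was 0.74, without replicate 2 of that group it was 0.28, and after correction for length and GC content it was 0.99.

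**Figure D2:**
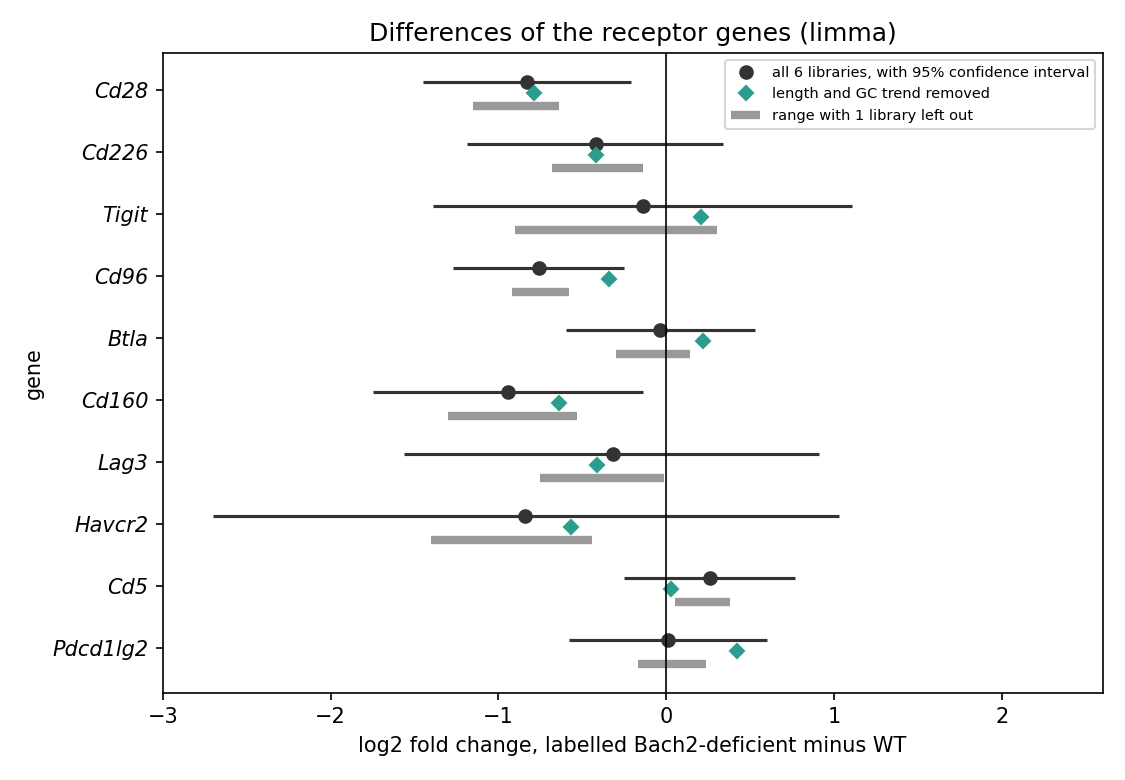
Log2 fold change of each gene between the libraries labelled Bach2-deficient and WT. Black points and lines are limma estimates from 6 libraries with 95% confidence intervals, green diamonds the same after correction for length and GC content, and grey bars the range when 1 library is left out. The intervals of Cd28, Cd96 and Cd160 lie below 0 in the 6-library fit, and the grey bars of Tigit, Btla and Pdcd1lg2 cross 0.

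CD226 is the activating receptor for CD155 and CD112, and its gene lies on chromosome 18 from 89176967 to 89272229 on the plus strand. Cd226 was at 282, 543 and 422 normalized counts in WT and at 200, 324 and 411 in the libraries labelled Bach2-deficient. The groups overlapped, since WT replicate 1 was below replicates 2 and 3 of the other group. This gave a log2 fold change of -0.42 (SE 0.35, limma adjusted p = 0.482), less than the spread between replicates allows to separate from 0. It was -0.68 without WT replicate 1, -0.66 without replicate 3 labelled Bach2-deficient, -0.21 without WT replicate 2 and -0.14 without replicate 1 labelled Bach2-deficient, so the size rested on single libraries.

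TIGIT, an inhibitory receptor for CD155 that is abundant on Tfh and regulatory T cells, is encoded on chromosome 16 from 43648867 to 43664146 on the minus strand. Its gene was at 1389, 1450 and 3140 normalized counts in WT and at 1070, 913 and 4812 in the libraries labelled Bach2-deficient. Replicate 3 was the high library in both groups, and the remaining 2 labelled Bach2-deficient lay below all WT libraries. The difference on the log2 scale was -0.14 (SE 0.56, 95% confidence interval -1.39 to 1.11, limma adjusted p = 0.905), and it was 0.21 after correction for length and GC content. Without replicate 3 labelled Bach2-deficient it was -0.9 (limma adjusted p = 0.148, against 0.0104 to 0.993 over the 18 alternatives), and without replicate 2 labelled Bach2-deficient it was 0.3. The direction for Tigit therefore depended on which library was left out; it was also above 0 without WT replicate 3, at 0.24, and without replicate 1 labelled Bach2-deficient, at 0.18. Library weights gave the lowest value, -1.23 (limma adjusted p = 0.0104).

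CD96, another receptor for CD155, is encoded on chromosome 16 from 46035657 to 46120251 on the minus strand. Cd96 was at 1819, 2340 and 1714 normalized counts in WT and at 1166, 900 and 1436 in the libraries labelled Bach2-deficient. The groups did not overlap, and replicate 2 was the highest WT library and the lowest of the other group. On the log2 scale the fold change was -0.76 (SE 0.23, 95% confidence interval -1.27 to -0.25, n = 3 in each group, limma adjusted p = 0.151, unadjusted p = 0.00788), the smallest p among the 10 genes, and it did not pass the threshold. After correction for length and GC content it was -0.34 (limma unadjusted p = 0.149), and without WT replicate 1 it was -0.8. DESeq2 on the reads of 5 libraries gave -0.83 (adjusted p = 0.0725), and over the 18 alternatives the adjusted p ran from 0.000851 to 0.501. The low end came with library weights in limma, and leaving out 1 library gave limma adjusted p-values of 0.0528 to 0.501.

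The balance of the CD155 receptors was measured as ratios within a library, which hardly depend on its size factor. The log2 ratio of Tigit to Cd226, per kb, was 4.59, 3.71 and 5.18 in WT and 4.71, 3.78 and 5.84 in the libraries labelled Bach2-deficient. Tigit thus exceeded Cd226 per kb in all 6 libraries, with replicate 2 lowest and replicate 3 highest in both groups, and the groups overlapped. The difference of 0.28 gave a 2-sided exact permutation p of 0.7 (adjusted over 4 ratios 0.7), and it was -0.25 without replicate 3 labelled Bach2-deficient and -0.11 without WT replicate 2, against 0.78 without replicate 2 labelled Bach2-deficient, 0.63 without WT replicate 3 and 0.64 after correction for length and GC content. The log2 ratio of Cd96 to Cd226 was 3.73, 3.15 and 3.06 in WT and 3.58, 2.51 and 2.84 in the other group. These groups overlapped as well, through replicate 1 labelled Bach2-deficient. The difference of -0.33 gave a 2-sided exact permutation p of 0.4 (adjusted over 4 ratios 0.53), and it was 0.083 after that correction. Leaving out 1 library gave -0.63 without replicate 1 labelled Bach2-deficient, -0.1 without replicate 2 of that group and -0.12 without WT replicate 1.

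BTLA, an inhibitory receptor for HVEM that is high on Tfh cells, is encoded on chromosome 16 from 45224315 to 45257670 on the plus strand. Btla was at 1387, 2259 and 2566 normalized counts in WT and at 1946, 1668 and 2294 in the libraries labelled Bach2-deficient. The 3 latter libraries lay inside the range of WT, whose replicate 1 was the lowest of all. The log2 fold change was -0.04 (SE 0.25, 95% confidence interval -0.6 to 0.53, limma adjusted p = 0.947), and it was 0.22 after correction for length and GC content and 0.12 after quantile normalization. Leaving out 1 library gave -0.3 to 0.14, the lowest without WT replicate 1 and the highest without WT replicate 3, and also 0.05 without WT replicate 2 and 0.08 without replicate 2 labelled Bach2-deficient. With library weights it was -0.47 (limma adjusted p = 0.0256, the low end of a range up to 0.973 over the 18 alternatives), and DESeq2 on 5 libraries gave -0.32.

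CD160, which binds HVEM and is known from NK cells, cytotoxic T cells and intestinal lymphocytes, is encoded on chromosome 3 from 96798763 to 96829351 on the minus strand. Cd160 was at 1072, 1388 and 1797 normalized counts in WT and at 406, 782 and 1178 in the libraries labelled Bach2-deficient. The groups overlapped by 1 library, since replicate 3 labelled Bach2-deficient was above WT replicate 1. Its log2 fold change was -0.94 (SE 0.36, 95% confidence interval -1.75 to -0.14, n = 3 in each group, limma adjusted p = 0.195, unadjusted p = 0.0253), which did not pass the threshold. It was -0.64 after correction for length and GC content (limma unadjusted p = 0.0845), -1.13 without WT replicate 1 and -0.53 without replicate 1 labelled Bach2-deficient. Pdzk1 overlaps the gene on the other strand, and without strand information reads of the 2 genes cannot be told apart. The summed NK or cytotoxic markers, given above, were also low in replicates 1 and 3 labelled Bach2-deficient, but were highest of all in replicate 2, where Cd160 was below each WT library; their part in the Cd160 values was not tested.

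The log2 ratio of Btla to Cd160, per kb, was 0.04, 0.37 and 0.19 in WT and 1.93, 0.76 and 0.63 in the libraries labelled Bach2-deficient. Each of the latter was above each WT library, and replicate 1 labelled Bach2-deficient was furthest from WT. The difference of 0.91 gave a 2-sided exact permutation p of 0.1, the smallest that 3 against 3 can give, and 0.4 adjusted over the 4 ratios. Without replicate 1 labelled Bach2-deficient the difference was 0.5, the lowest with 1 library left out, and after correction for length and GC content it was 0.86.

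**Figure D3:**
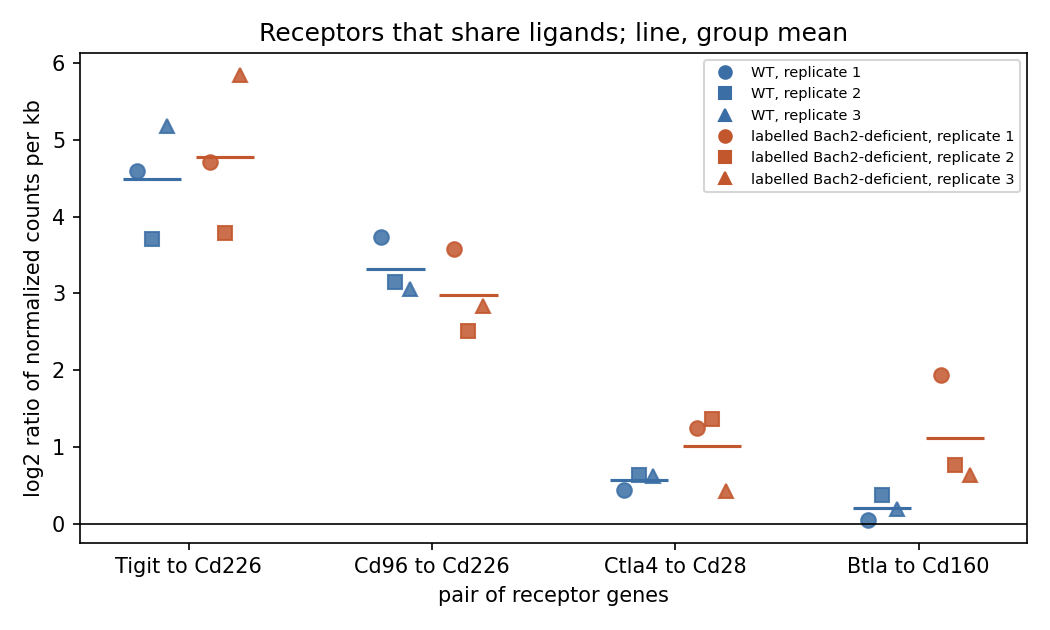
Log2 ratio of normalized counts per kb within each library for 4 pairs of receptors that share ligands. Blue marks WT and orange the libraries labelled Bach2-deficient, shapes give the replicate number, and lines are group means. The groups are separated for Btla to Cd160, at 0.04 to 0.37 in WT against 0.63 to 1.93, and overlap for the other 3 pairs.

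LAG-3, an inhibitory receptor that binds MHC class II, is encoded on chromosome 6 from 124904361 to 124911705 on the minus strand. Lag3 was at 89.8, 31.4 and 68.6 normalized counts in WT and at 35.5, 48.2 and 57.3 in the libraries labelled Bach2-deficient. The 3 latter libraries lay within the range of WT. This gave a log2 fold change of -0.32 (SE 0.56, limma adjusted p = 0.757), and -0.01 without WT replicate 1, -0.75 without WT replicate 2, -0.2 without WT replicate 3, and -0.14 and -0.48 without replicates 1 and 3 labelled Bach2-deficient. Depth limits this gene: the value of replicate 1 labelled Bach2-deficient rests on 24 reads (exact Poisson 95% interval 15.4 to 35.7, counting error only) and that of WT replicate 2 on 28 reads (18.6 to 40.5).

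TIM-3, the product of Havcr2, is an inhibitory receptor of exhausted and Th1 cells and lies on chromosome 11 from 46454935 to 46481255 on the plus strand. Havcr2 was at 49.5, 12.3 and 35.4 normalized counts in WT and at 10.3, 32.8 and 10.2 in the libraries labelled Bach2-deficient. Each group held high and low libraries, and the ranges overlapped. The difference on the log2 scale was -0.84 (SE 0.84, 95% confidence interval -2.7 to 1.03, limma adjusted p = 0.574), and was -0.44 without WT replicate 1, -1.4 without WT replicate 2, -1.36 without replicate 2 labelled Bach2-deficient and -0.01 with library weights. The lowest values rest on 7 reads in replicate 1 labelled Bach2-deficient (exact Poisson 95% interval 2.81 to 14.4) and 10 reads in replicate 3 (4.8 to 18.4), so counting error is large for this gene.

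Promoters were searched for TGANTCA, in which N is any base. The core bound by AP-1 and by dimers of Bach2 with small Maf proteins has C or G there. The pattern is thus wider than that core, and it reads the same on both strands. RefSeq sequences (GRCm38.p6) covering 250 bases before a start were matched for 7 of the 10 genes, Btla, Tigit, Havcr2, Cd160, Cd96, Cd5 and Pdcd1lg2. The promoter of Havcr2 held 1 match, which begins 200 bases before the start and is in capitals. This match has T at N and so is not the core given above. The promoters of the other 6 held 0 at each listed start. Of all 32851 promoters in the set 6.75% held a match, and a match describes the letters, not a site of binding. Havcr2 is shown for its match, and Cd96 and Cd160 as the genes with promoter sequence whose unadjusted p was under 0.05. The windows are chr11:46454681-46454930 on the plus strand for Havcr2, chr16:46120249-46120498 on the minus strand for Cd96 and chr3:96829352-96829601 on the minus strand for Cd160, whose RefSeq entries give another start inside the gene as well. All of them lie before the GENCODE M21 gene apart from the last 3 bases of the Cd96 window. Each is written 5′ to 3′ on the strand of its gene.
Havcr2: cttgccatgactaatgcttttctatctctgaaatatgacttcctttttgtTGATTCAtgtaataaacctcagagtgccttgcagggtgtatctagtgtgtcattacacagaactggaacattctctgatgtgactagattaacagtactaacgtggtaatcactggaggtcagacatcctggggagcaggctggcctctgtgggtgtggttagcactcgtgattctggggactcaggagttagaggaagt
Cd96: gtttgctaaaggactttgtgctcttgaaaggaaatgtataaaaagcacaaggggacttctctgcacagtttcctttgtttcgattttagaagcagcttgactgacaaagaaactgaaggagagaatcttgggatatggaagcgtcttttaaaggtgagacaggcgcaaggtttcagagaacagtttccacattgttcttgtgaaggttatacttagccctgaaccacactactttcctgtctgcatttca
Cd160: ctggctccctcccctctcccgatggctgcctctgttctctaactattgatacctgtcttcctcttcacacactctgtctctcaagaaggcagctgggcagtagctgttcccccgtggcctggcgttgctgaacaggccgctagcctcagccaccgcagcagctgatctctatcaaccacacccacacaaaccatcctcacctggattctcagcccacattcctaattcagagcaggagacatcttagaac
GC content was 44.8% in the window of Havcr2, 41.2% in that of Cd96 and 55.2% in that of Cd160.

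CD5, which restrains antigen receptor signalling in T cells, is encoded on chromosome 19 from 10717116 to 10739002 on the minus strand. Cd5 was at 2094, 1975 and 2613 normalized counts in WT and at 3541, 2332 and 2249 in the libraries labelled Bach2-deficient. Replicate 1 labelled Bach2-deficient was the highest library, and the remaining 2 lay within the range of WT. On the log2 scale the fold change was 0.26 (SE 0.23, 95% confidence interval -0.25 to 0.77, limma adjusted p = 0.513). It was 0.03 after correction for length and GC content and 0.05 without replicate 1 labelled Bach2-deficient.

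Pdcd1lg2, the gene of PD-L2, lies on chromosome 19 from 29410919 to 29471161 on the plus strand and is overlapped by the antisense gene A930007I19Rik, whose reads cannot be told apart without strand information. It was at 344, 416 and 615 normalized counts in WT and at 469, 436 and 442 in the libraries labelled Bach2-deficient. The latter lay closely together inside the range of WT. The log2 fold change was 0.01 (SE 0.26, 95% confidence interval -0.58 to 0.6, limma adjusted p = 0.985), and was 0.42 after correction for length and GC content and -0.23 in DESeq2 on 5 libraries. Leaving out 1 library gave -0.17 to 0.24, with values below 0 without WT replicates 1 or 2 or without replicate 1 labelled Bach2-deficient. Its receptor gene Pdcd1, named after its values were seen because PD-1 is part of the sort gate, was at 2708, 1594 and 2403 in WT and at 2159, 1462 and 1927 in the other group, with overlap (log2 fold change -0.26, SE 0.25, limma adjusted p = 0.557). For Pdcd1 it was -0.1 without WT replicate 1 and -0.072 after correction for length and GC content.

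Related receptors of the same families went both ways. Of the 17 listed, 16 were in the table and 14 were tested. At an unadjusted limma p under 0.05, 1 was higher and 2 were lower in the libraries labelled Bach2-deficient. Of all genes tested, 10.1% were higher and 10.2% lower at that p. The median log2 fold change of the 14 was 0.08. The median was -0.05 after correction for length and GC content, and -0.04 without WT replicate 1. Without that library 1 was higher and 3 were lower, where 1097 of 11171 genes were higher and 1052 lower. Icos, the costimulatory receptor that Tfh cells depend on, was at 2547, 4079 and 4953 normalized counts in WT and at 1675, 1440 and 2511 in the other group. These groups were separated by a narrow gap, between WT replicate 1 and replicate 3 labelled Bach2-deficient, and the log2 fold change was -1.03 (SE 0.29, limma adjusted p = 0.146). Cd2, an adhesion and costimulatory receptor, was at 5445, 7100 and 9186 in WT and at 3019, 4113 and 6013 in the other group, with overlap (log2 fold change -0.75, SE 0.28, limma adjusted p = 0.192, and -0.31 after that correction). Cd4, the coreceptor for MHC class II and part of the sort gate, was at 2500, 2407 and 2792 in WT and at 4131, 3341 and 3349 in the other group. The labelled group was the higher one without overlap (log2 fold change 0.49, SE 0.18, limma adjusted p = 0.193). Crtam, a receptor of activated cytotoxic and NK cells, was at 1289 in WT replicate 1 and at 96.5 and 126 in the other WT libraries, against 39.9, 153 and 37.8. Its log2 fold change of -2.01 (SE 0.91, limma adjusted p = 0.246) drew on that library, and was -0.83 without it.

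Of the 20 ligands listed, 18 were in the table and 15 were tested. At an unadjusted limma p under 0.05, 4 were lower in the libraries labelled Bach2-deficient and 0 were higher. Of all genes tested, 10.2% were lower and 10.1% higher at that p. The median log2 fold change of the ligands was -0.49, or -0.39 after correction for length and GC content. Without WT replicate 1, 2 of 14 were lower and 0 higher, where 1052 of 11171 genes were lower and 1097 higher. Lgals9, which encodes the TIM-3 ligand galectin-9, was at 2631, 2653 and 3316 normalized counts in WT and at 1119, 1536 and 2724 in the other group, overlapping through replicate 3 labelled Bach2-deficient (log2 fold change -0.77, SE 0.3, limma adjusted p = 0.2, and -0.39 after that correction). Cd72, the gene of a B cell protein described as a ligand of CD5, was at 302, 108 and 67.6 in WT and at 7.39, 38.2 and 45.0 in the other group. It was the ligand whose groups did not overlap (log2 fold change -2.41, SE 0.78, limma adjusted p = 0.159). Cd72 was highest in WT replicate 1, and the B cell markers above summed highest in WT replicates 2 and 3. Of the 5 B cell markers, 4 had a log2 fold change below 0 and 1 above, with a median of -0.8. Ms4a1 among them was lower without overlap. The part of B cells in the Cd72 values was not tested. The MHC class II genes H2-Aa and H2-Ab1, whose products LAG-3 binds and which T cells of mice hardly make, were measured in every library. H2-Aa was at 4608, 5877 and 3402 in WT and at 2464, 4498 and 1775 in the other group (log2 fold change -0.74, SE 0.33, limma adjusted p = 0.241). H2-Ab1 was at 4406, 4509 and 3239 in WT and at 2211, 3930 and 1417 in the other group (log2 fold change -0.8, SE 0.33, limma adjusted p = 0.217). Both were highest in replicate 2 of each group, as was Lyz2, which carried the summed dendritic cell or macrophage markers, at 1848, 7211 and 3444 in WT and 1445, 4395 and 1407 in the other group. Csf1r, the gene of that list with the next highest mean, was at 14.1, 212 and 152 against 214, 371 and 177. Its log2 fold change was 1.62, and 0.43 without WT replicate 1. The part of such cells was not tested. Hmgb1, another described TIM-3 ligand and the most abundant gene of the list, was at 12409, 9424 and 13454 in WT and at 6932, 7142 and 11291 in the other group (log2 fold change -0.5, SE 0.25, limma adjusted p = 0.274, and -0.13 after that correction).

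Most genes of signalling proteins below these receptors lay above 0. Of 24 tested, 19 had a log2 fold change above 0, where 6185 of all 11296 genes had. At an unadjusted limma p under 0.05, 8 were higher in the libraries labelled Bach2-deficient and 0 were lower. Of all genes tested, 10.1% were higher and 10.2% lower at that p. The median of the 24 was 0.46, against 0.19 after correction for length and GC content and 0.29 without WT replicate 1. Over all genes tested, the median was 0.08, against 0.1 after that correction and 0.025 without WT replicate 1. Without that library 5 were higher and 0 lower, where 1097 of 11171 genes were higher and 1052 lower. The groups did not overlap for 7 genes that were higher and 1 that was lower, where 14.6% and 12.2% of all genes were separated in these directions. Csk, the kinase that keeps Lck inactive, was at 553, 656 and 782 normalized counts in WT and at 1440, 1176 and 1109 in the other group, a log2 fold change of 0.91 (SE 0.22, limma adjusted p = 0.141) and 0.6 after that correction. Ptpn11, which encodes the phosphatase SHP-2, was at 935, 1190 and 1209 in WT and at 2289, 1414 and 2041 in the other group (log2 fold change 0.76, SE 0.23, limma adjusted p = 0.151), and 0.33 was left after that correction. Both genes were separated between the groups. Cbl, a ubiquitin ligase that ends receptor signalling, was at 305, 671 and 536 in WT and at 1018, 920 and 1169 in the other group (log2 fold change 1.11, SE 0.29, limma adjusted p = 0.141). Bag6, the gene of a partner of the TIM-3 tail, was at 235, 251 and 204 in WT and at 469, 356 and 289 in the other group (log2 fold change 0.67, SE 0.28, limma adjusted p = 0.221), and 0.11 was left after that correction. The most abundant genes of the list lay below 0. Lck, the kinase of CD4 and CD28 signalling, was at 9894, 7846 and 9443 in WT and at 9045, 7171 and 7672 in the other group, with overlap. Lcp2, the gene of the adaptor SLP-76, was at 3641, 3698 and 4641 in WT and at 3277, 2830 and 3160 in the other group, lower in each of the latter (log2 fold change -0.36, SE 0.19, limma adjusted p = 0.287).

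**Figure D4:**
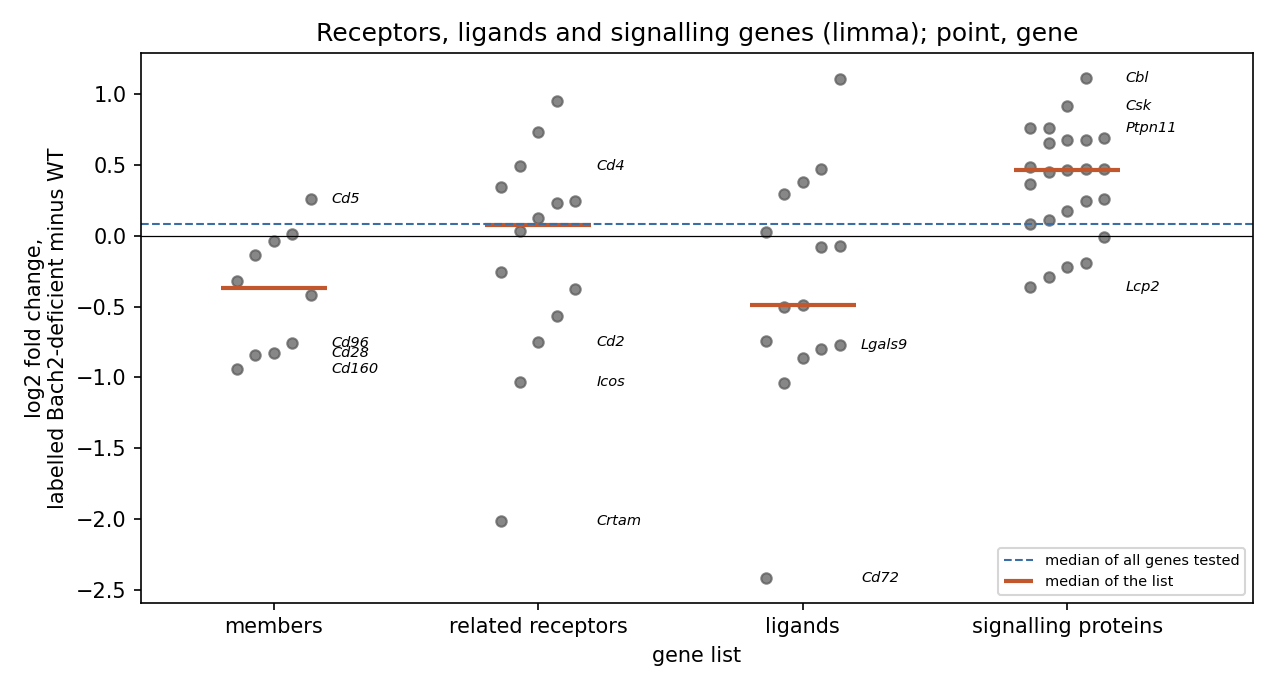
Log2 fold change (libraries labelled Bach2-deficient minus WT, limma) of each tested gene of 4 lists. Orange lines are the medians, -0.37 for the 10 members, 0.08 for related receptors, -0.49 for ligands and 0.46 for signalling proteins, and the dashed line is the median of all genes tested, 0.08. The medians of related receptors, ligands and signalling proteins were -0.05, -0.39 and 0.19 after correction for length and GC content, where that of all genes was 0.1.

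The remaining marker lists place these values among the other genes of T cells. Among all genes tested, 10.2% were lower and 10.1% higher at an unadjusted limma p under 0.05. Without WT replicate 1, 1052 of 11171 genes were lower and 1097 higher. Of the 7 CD4 T cell genes, 3 were lower at an unadjusted limma p under 0.05, Cd3e, Cd2 and Cd28, and 1 was higher, Cd4. Cd3e, a chain of the antigen receptor complex, was at 10623, 9648 and 11924 normalized counts in WT and at 4534, 5238 and 6140 in the libraries labelled Bach2-deficient, without overlap (log2 fold change -1.02, SE 0.2, limma adjusted p = 0.141, and -0.68 after correction for length and GC content). Cd3d, at 15855, 18785 and 24100 in WT and 19522, 18740 and 17543 in the other group, overlapped, and so did Cd3g, at 14907, 18222 and 24155 against 11574, 13721 and 18604. Of the 3 chains, Cd3e alone was separated between the groups. Of the 12 Tfh genes, 2 were higher, Bcl6 and Tox2, and 2 were lower, Icos and Slamf6; without WT replicate 1, 2 were higher and 4 lower. Bcl6, which encodes the transcription factor that directs Tfh formation, was at 436, 342 and 501 in WT and at 792, 818 and 537 in the other group (log2 fold change 0.74, SE 0.26, limma adjusted p = 0.173). Tox2 was at 624, 1260 and 1365 in WT and at 2739, 1759 and 2190 in the other group (log2 fold change 1.1, SE 0.31, limma adjusted p = 0.146). The SLAM family receptor gene Slamf6, of the immunoglobulin superfamily, was at 6957, 8375 and 11196 in WT and at 5786, 4987 and 6873 in the other group (log2 fold change -0.57, SE 0.23, limma adjusted p = 0.204). All 3 were separated between the groups.

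Regulatory T cells are a source of Tigit, Ctla4 and Icos transcripts, so their markers are given beside these genes. Of the 5 listed, 3 were lower at an unadjusted limma p under 0.05, Foxp3, Tnfrsf18 and Il10, and 0 were higher, against 2 and 0 without WT replicate 1. For this list and those that follow, 10.2% of all genes tested were lower and 10.1% higher at that p. Without WT replicate 1, 1052 of 11171 genes were lower and 1097 higher. The list summed to 5949, 6160 and 7887 normalized counts in WT and to 6389, 5309 and 4643 in the libraries labelled Bach2-deficient, with Ikzf2 the most abundant at 4163. Foxp3 was at 222, 315 and 344 in WT and at 47.3, 140 and 91.0 in the other group. Tnfrsf18 was at 1385, 1088 and 1620 against 643, 814 and 982, and Il10 at 262, 61.7 and 155 against 59.1, 54.3 and 43.0 (log2 fold change -1.38, and -0.75 after correction for length and GC content). These 3 genes were thus lower in each library labelled Bach2-deficient, as Cd28, Icos and Ctla4 were. Separation in this direction was found for 12.2% of all genes tested. Il2ra, at 685, 535 and 410 against 192, 763 and 448, overlapped. So did Ikzf2, at 3394, 4160 and 5358 against 5448, 3538 and 3080, and Tigit, given above. The part of regulatory T cells in the receptor values was not tested. Of the 10 NK or cytotoxic genes, 2 were lower, Nkg7 and Eomes, and 1 was higher, Gzmb; without WT replicate 1, 3 were lower and 1 higher. Nkg7 was at 5536, 2907 and 2633 in WT and at 962, 2417 and 1432 in the other group, without overlap, and Eomes at 507, 155 and 72.8 against 34.0, 131 and 28.6. Gzmb went the other way, at 2.02, 88.6 and 38.5 in WT against 79.8, 324 and 231. Of the 7 naive T cell genes, 1 was lower, Ccr7, and 1 was higher, Tcf7, against 0 and 0 without WT replicate 1, with list sums of 11898, 12679 and 9591 in WT and 14002, 13870 and 12027 in the other group, led by Tcf7 at 6256. Of 5 tested B cell genes 1 was lower, Ms4a1, at 35.3, 33.7 and 45.8 in WT against 2.96, 2.68 and 10.2, and without WT replicate 1, 3 of 5 were lower. Cd22 went the other way, at 36.3, 102 and 102 against 238, 149 and 77.7 (log2 fold change 0.94, with overlap, and 0.46 without WT replicate 1). The median of these 5 was -0.8, and -1.26 without that library. Of 9 genes of dendritic cells or macrophages, 2 CD8 T cell genes and 1 tested gene of gamma delta or NKT cells, 0 were past that p; without WT replicate 1, 1 of 8 genes of dendritic cells or macrophages and 1 of the 2 CD8 T cell genes were lower. The CD8 T cell genes Cd8a and Cd8b1 summed to 176, 786 and 552 in WT and to 361, 332 and 413 in the other group, with Cd8b1 the more abundant at 307. Trdc and Zbtb16, of gamma delta and NKT cells, summed to 86, 93 and 48 against 92, 66 and 83, with Trdc the more abundant at 73 and Zbtb16 at 0 in WT replicates 1 and 3.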

How the data were processed

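Poly(A) RNA of sorted Tfh cells was measured in 6 libraries, 3 WT and 3 labelled Bach2-deficient. The deposited signal is a normalized count per gene, which the authors made by dividing read counts by a size factor of each library. The methods of the study name Tophat2, HTSeq and DESeq2, whereas the submitters' processing notes name STAR 2.5.2b, DESeq, DESeq2 1.20.0 and R 3.5.1 with GRCm38 (mm10), so the aligner is uncertain. The annotation and any use of strand are not given in the sources used here.

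Values were taken to log2(normalized count + 1). The test was limma 3.58.1 (R 4.3.3, variance trend on, p-values adjusted by Benjamini-Hochberg), over 11296 genes that reached 10 normalized counts in at least 3 libraries. This scale understates the fold change of genes with low values. The thresholds were 0.01 for the adjusted p together with more than a 2-fold difference, and counts at an unadjusted p under 0.05 are given beside them. Ratios were compared by 2-sided exact permutation over libraries. In 5 libraries, division by the smallest positive value gave whole reads (100% of values), which were tested with edgeR 4.0.16 and DESeq2 1.42.0 without independent filtering. WT replicate 1 also divides into whole numbers, but its step of 1.01 lies too close to 1 for the unit check applied to all libraries, and it entered no count test. The recovered depth was 5045131 to 10987752 reads a library. Counting intervals are exact Poisson intervals at 95% and cover counting error only, since copies made by PCR stay in the counts.

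Transcript length, GC content and gene positions come from GENCODE M21 on GRCm38 (14329 genes matched by symbol and 370 by an older symbol). The trend in both was fitted to each library with mgcv 1.9.3 and subtracted. The limma, edgeR and DESeq2 fits were run on simulated data. These held no outlying library and no trend with transcript length, so they say nothing on how the fits handle either.

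The members and lists were chosen with earlier results of these data known. The genes named are the 10 members, Bach2, and from each list (related receptors, ligands, signalling proteins and 9 marker lists) up to 4 genes with the smallest unadjusted p and up to 2 with the highest mean; Ctla4 is named for its ratio and Pdcd1 was added after its values were seen, as were Ncr1, Klrd1 and Klrk1 for their value of 0 in WT replicate 1. Of the planned marker genes, 1 is not reported here and enters no sum. Alternatives were other pseudocounts, filters, normalizations, variance models, library weights, a replicate block, count tests and leaving out each library.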

Additional observations from a re-analysis of the deposited data

How the results depend on the processing

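The count of genes past the thresholds was 0 in both directions by limma in all alternatives but library weights, which gave 561 higher and 567 lower; leaving out 1 library gave 0 to 0. DESeq2 on 5 libraries gave 33 and 57, and an unadjusted limma p under 0.05 gave 1144 and 1157, 2301 in both directions. That last count was 5328 with library weights and 1058 to 3061 with 1 library left out, the lowest without replicate 1 labelled Bach2-deficient, then 1200 without replicate 2. Weights were 0.206 for WT replicate 1 and 5.54 for replicate 2 labelled Bach2-deficient.

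Cd28 (-1.21) and Cd160 (-1.13) passed the thresholds with library weights, where the limma adjusted p was 0.000463 and 0.00152, against 0.0385 to 0.519 and 0.0607 to 0.569 with 1 library left out. Cd28, Cd226, Cd96, Cd160, Lag3 and Havcr2 were below 0 and Cd5 above 0 in each alternative run. Log2 fold changes turned sign for Btla with quantile normalization (0.12) and after correction for length and GC content (0.22), for Tigit with the same (0.027 and 0.21), and for Pdcd1lg2 with median rescaling (-0.026), library weights (-0.28), edgeR (-0.2) and DESeq2 (-0.23). With 1 library left out they ran from -0.3 to 0.14 for Btla, -0.9 to 0.3 for Tigit and -0.17 to 0.24 for Pdcd1lg2. The lowest values of Tigit and Btla, -1.23 and -0.47, came with library weights. The ratio of Cd96 to Cd226 turned to 0.083 after that correction, and that of Tigit to Cd226 ran from -0.25 to 0.78 with 1 library left out. The cause was not tested. Havcr2 is dropped by a filter on a mean of at least 50.

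Replicate numbers did not pair the libraries: deviations from the group means correlated at -0.07, 0.12 and -0.04. With the number as a replicate block, 0 genes passed the thresholds and 2051 had an unadjusted limma p under 0.05. Depth limits Lag3 and Havcr2, at 7 to 72 reads in each of the 5 libraries with recovered reads.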
